A study of Drosophila melanogaster with 24 samples.

Results

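The aminoacyl-tRNA synthetase genes are described here in sorted clock neurons of male Drosophila melanogaster. Members are the rows of the count table whose symbol holds an amino acid code followed by RS, with or without the suffix -m that marks a mitochondrial form. The rule gave 35 of the 15610 genes in the table, 20 without the suffix and 15 with it. The genes without the suffix are called cytosolic below. For glycine, lysine and a few other amino acids no suffixed gene is listed, and some of their genes may serve both compartments. All cells carried CLK856-Gal4, a driver active in clock neurons, with UAS-Cas9 and UAS-eGFP. The Cas9 control had no guide construct, and Drp1-mut, Marf-mut and Opa1-mut each added 3 guides against the gene in their name. Drp1 divides mitochondria, Marf joins outer mitochondrial membranes and Opa1 joins inner membranes. Flies were young (about 15 days) or old (about 35 days), brains were taken at ZT14, and 3 libraries were made in each of the 8 groups. Editing takes place in the cells of the driver, and such editing in the body can leave cells with unedited alleles. A library holds the RNA of about 1000 GFP-positive cells sorted together. The 3 pools of a group came from a single suspension of 80 to 100 brains, so p-values over libraries measure the spread between pools, and suspension and group cannot be told apart. In such bulk samples fewer cells of a type and less RNA per cell cannot be told apart either.

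Aminoacyl-tRNA synthetases join each amino acid to its tRNA, the step that fixes the genetic code before translation. The cytosolic enzymes load tRNAs for the bulk of protein synthesis, and the mitochondrial enzymes are encoded in the nucleus, imported, and load tRNAs for the few proteins that mitochondrial DNA encodes. Unloaded tRNA activates the kinase Gcn2, a sensor of the integrated stress response that acts through the transcription factor ATF4 (crc in the fly). In mammals many cytosolic synthetase genes are among the targets of ATF4.

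The summed level of the cytosolic genes was highest in old Opa1-mut libraries. Levels are UMI counts scaled by TMM to CPM, a share of each library's total. In old Opa1-mut the 20 cytosolic genes summed to 1859, 1911 and 1938 CPM in replicates 1 to 3, a mean of 1903 ± 39.9 (SD, n = 3). Old Cas9 libraries held 1057, 1081 and 1014 CPM, old Drp1-mut held 1048, 942 and 947, and old Marf-mut held 1238, 1197 and 1304. The highest library of any other group, young Opa1-mut replicate 3, held 1361 CPM. The 15 mitochondrial genes summed to 460, 464 and 485 CPM in old Opa1-mut and to 450, 425 and 438 in old Cas9, and young Cas9 libraries reached 494. The mitochondrial sum of old Opa1-mut thus lay within the range of the other groups.

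**Figure D1:**
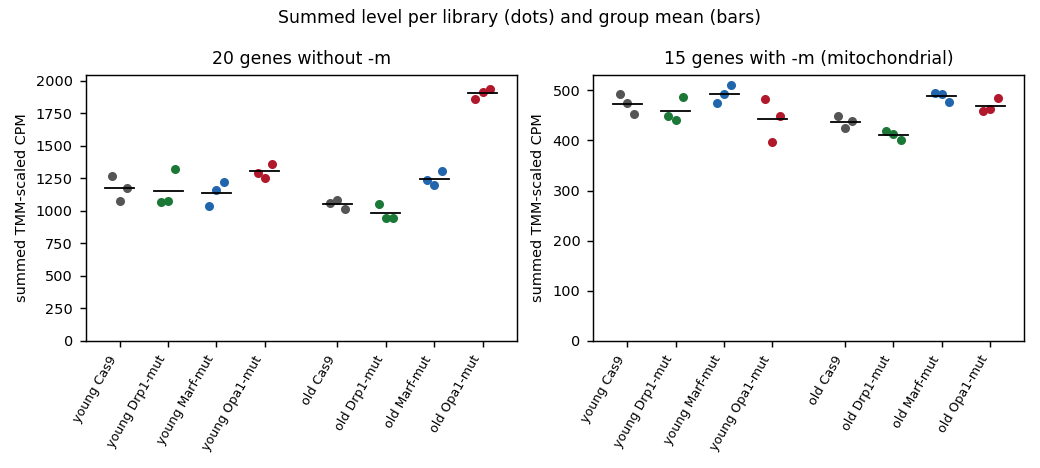
Summed TMM-scaled CPM of the 20 cytosolic genes (left) and the 15 mitochondrial genes (right) in each of the 24 libraries. Dots are libraries and bars are means of 3. On the left the old Opa1-mut libraries, 1859 to 1938 CPM, lie above all others, and on the right they lie among the rest.

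Library depth was 684175 to 2889269 UMIs. The old Opa1-mut libraries (1468850 to 1843669 UMIs) were all deeper than the old Cas9 libraries (1109778 to 1313809), and transcripts of mitochondrial DNA took 3.04% to 3.99% of their UMIs against 7.06% to 7.38%. The clock neuron markers per, tim, Clk, cry, Pdf, vri and Pdp1 were detected in every group. They summed to 15498 to 22883 CPM in old Opa1-mut and to 13702 to 15646 in old Cas9. Pdf made up most of these sums, at 12755 to 19959 CPM in old Opa1-mut and 10386 to 12944 in old Cas9. Of the 7 markers 3 had a positive log2 fold change, and the median was -0.12. For Clk and Pdp1 every old Opa1-mut library lay below every old Cas9 library. None of these 7 was called between those groups. Summed glial markers (8 genes) were 616 to 814 CPM against 458 to 794, and photoreceptor markers (6 genes) 65.7 to 72.6 against 79.1 to 86.7. Most of the photoreceptor sums was norpA, at 55.5 to 59.6 CPM against 64.6 to 73.0. It was the only 1 of those 6 that was tested, and it was not called. Fat body and hemocyte markers (6 genes, Lsp2 at 0 in old Opa1-mut) summed to 22.3 to 44.4 CPM against 20.9 to 40.2. The 6 markers of other neurons summed to 6598 to 7712 CPM against 11430 to 12264, and of these Hug fell, with a log2 fold change of -0.96. The part of these markers and of the mitochondrial RNA share in the results below was not tested. The targeted genes had lower means in their own mutants: Opa1 averaged 93.9 ± 3.12 CPM in old Opa1-mut and 149 ± 2.49 in old Cas9 (SD, n = 3). Drp1 averaged 84.5 ± 16.6 CPM in old Drp1-mut and 160 ± 5.94 in old Cas9, and Marf 116 ± 9.25 in old Marf-mut and 138 ± 2.70. Reads from an edited allele can still be counted.

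In old Opa1-mut neurons 16 of the 20 cytosolic synthetase genes rose against old Cas9 and none fell. No mitochondrial gene was called. Each comparison used edgeR's quasi-likelihood F test over all genes that passed its filter on low counts, and a gene was called at a Benjamini-Hochberg adjusted p under 0.05. Of the 7119 genes tested, 7.54% were called higher. The median log2 fold change of the cytosolic genes was 0.77, against 0.12 for the 14 mitochondrial genes tested and 0.0011 for all genes tested. All 3 old Opa1-mut libraries lay above all 3 old Cas9 libraries for 17 of the 20 cytosolic genes and for 1 of the 14 mitochondrial genes, and for 16.9% of all genes tested. GluRS-m, the mitochondrial glutamyl-tRNA synthetase gene, did not pass the filter, with 3.39 to 6.27 CPM in the old Opa1-mut and 5.51 to 5.62 in the old Cas9 libraries.

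The 4 genes with the largest rise load serine, tryptophan, aspartate and alanine. SerRS, for serine, stood at 191, 209 and 193 CPM in old Opa1-mut and at 60.7, 69.8 and 70.9 in old Cas9. Its log2 fold change was 1.55 ± 0.12 (SE), with an adjusted p of 1.27e-08 by edgeR. TrpRS, for tryptophan, stood at 100.1, 116 and 103 CPM against 37.8, 32.9 and 40.5. The TrpRS change was 1.51 ± 0.15 (adjusted p = 3.70e-07, edgeR). For these genes each old Opa1-mut library exceeded every library of the other 7 groups, where SerRS reached at most 129 CPM and TrpRS at most 67.2. AspRS, for aspartate, stood at 123, 135 and 148 CPM against 44.1, 64.2 and 39.6, a log2 fold change of 1.44 ± 0.16 (adjusted p = 1.80e-06, edgeR). AlaRS, for alanine, stood at 104, 101 and 102 CPM against 36.2, 51.4 and 30.4. Its change was 1.36 ± 0.17 (adjusted p = 5.51e-06, edgeR). The groups did not overlap for AspRS and AlaRS either, and both genes spread more among the old Cas9 libraries than SerRS and TrpRS did.

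A second tier changed by 0.81 to 1.08 on the log2 scale. CysRS, for cysteine, stood at 33.6, 38.6 and 54.3 CPM in old Opa1-mut and at 22.8, 17.7 and 19.3 in old Cas9 (log2 fold change 1.08 ± 0.23, adjusted p = 0.00295, edgeR). ValRS, for valine, stood at 91.8, 112 and 114 CPM against 49.6, 52.2 and 47.8 (1.07 ± 0.15, adjusted p = 2.42e-05, edgeR). CysRS was uneven among the old Opa1-mut libraries, while the old Cas9 libraries of ValRS lay close together. GlyRS, for glycine, stood at 113, 131 and 116 CPM against 53.6, 70.6 and 74.5, and changed by 0.85 ± 0.15. AsnRS, for asparagine, stood at 129, 133 and 122 CPM against 72.5, 73.0 and 70.9, and changed by 0.81 ± 0.13. LeuRS, for leucine, stood at 59.6, 61.6 and 57.4 CPM against 30.7, 35.3 and 35.0, and changed by 0.81 ± 0.17. Within each group the libraries of AsnRS and LeuRS were close, and the groups did not overlap for any of these genes. HisRS, for histidine, stood at 74.0, 69.8 and 70.0 CPM against 38.6, 39.3 and 39.6, with a log2 fold change of 0.85 ± 0.15 (adjusted p = 0.000574, edgeR). Its old Opa1-mut values overlapped those of the young groups, and old Cas9 held the lowest levels of any group, as described with age below.

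The remaining called genes changed less. GluProRS, a fused gene for glutamate and proline, stood at 30.2, 40.0 and 52.7 CPM in old Opa1-mut and at 22.8, 27.3 and 23.9 in old Cas9, a log2 fold change of 0.73 ± 0.23. LysRS, for lysine, stood at 74.0, 77.2 and 90.9 CPM against 61.4, 54.6 and 39.6 (0.62 ± 0.16). TyrRS, for tyrosine, stood at 160, 112 and 152 CPM against 84.3, 92.3 and 99.4 (0.62 ± 0.14). The old Opa1-mut replicate 2 of TyrRS was close to the highest library of old Marf-mut, at 112 CPM. ThrRS, for threonine, stood at 242, 241 and 237 CPM against 175, 150.1 and 175 (0.52 ± 0.098), a small rise with little spread. IleRS, for isoleucine, stood at 78.1, 69.1 and 79.9 CPM against 57.5, 57.8 and 42.3 (0.51 ± 0.16, adjusted p = 0.0334, edgeR). The 4 cytosolic genes not called were ArgRS (log2 fold change 0.47 ± 0.24), GlnRS (0.47 ± 0.16), MetRS (0.31 ± 0.25) and beta-PheRS (-0.023 ± 0.19), for arginine, glutamine, methionine and phenylalanine. GlnRS stood at 63.7, 62.3 and 65.3 CPM against 37.8, 53.8 and 45.1, without overlap, at an adjusted p of 0.0613 (edgeR).

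**Figure D2:**
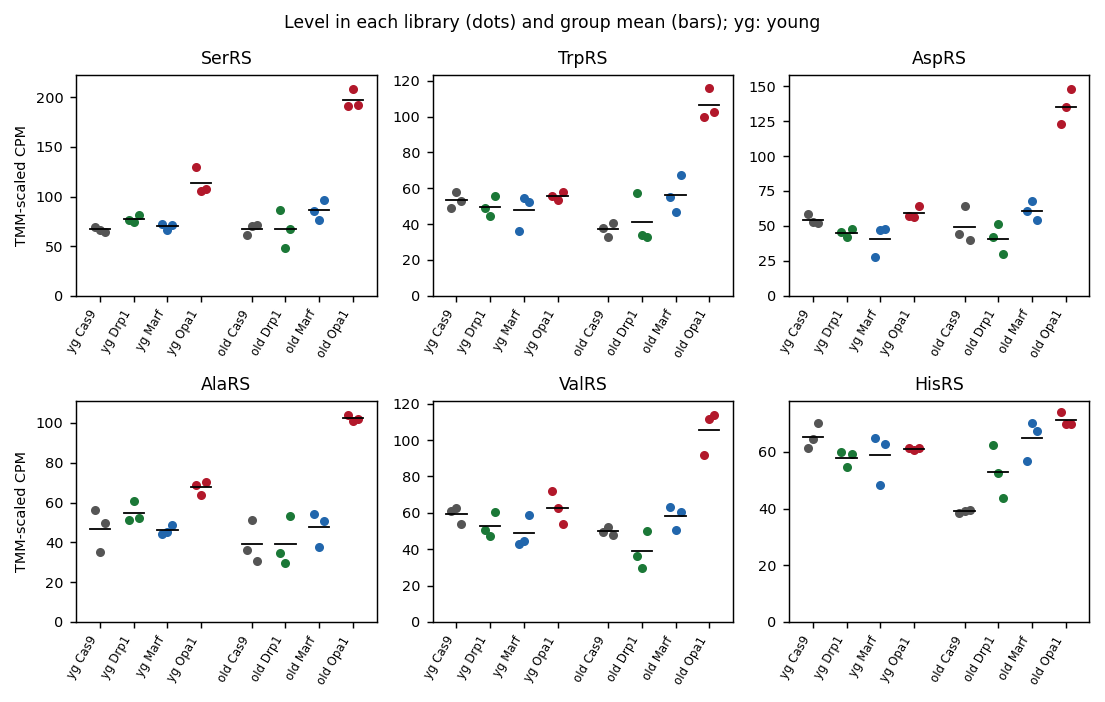
TMM-scaled CPM of 6 cytosolic synthetase genes in each of the 24 libraries. Dots are libraries and bars are means of 3, with a separate vertical scale per gene. For SerRS, TrpRS, AspRS, AlaRS and ValRS the old Opa1-mut libraries lie above all others, and for HisRS the old Cas9 libraries, 38.6 to 39.6 CPM, are the low ones.

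How many of these calls held depended on how depth was handled. After the 6 libraries were thinned to the same depth 15 cytosolic genes were called, all but IleRS. With log2 depth as a covariate 6 were called (AlaRS, AsnRS, AspRS, GlyRS, SerRS and TrpRS), in a fit where depth does not overlap between the groups. There the log2 fold changes fell to 0.50 for CysRS, 0.24 for IleRS, 0.20 for GluProRS and 0.19 for LysRS. Leaving out a library gave 12 to 16 called genes. Without old Cas9 replicate 3 alpha-PheRS, GluProRS, IleRS and LysRS were no longer called.

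Synthetases fall into class I and class II by the fold of the catalytic domain, and these groupings were added after the values were known. In old Opa1-mut 6 of 9 cytosolic class I genes rose (median log2 fold change 0.62) and 9 of 10 class II genes (median 0.83). In mammals 8 of these enzymes, for arginine, aspartate, glutamine, glutamate with proline, isoleucine, leucine, lysine and methionine, share a complex. Of these 8 genes 5 rose (median 0.57), and 11 of the 12 others did (median 0.85). The difference between such groups was not tested. Cytosolic phenylalanyl-tRNA synthetase is built from alpha and beta subunits. The alpha-PheRS gene stood at 91.8, 97.5 and 88.2 CPM in old Opa1-mut and at 70.9, 65.0 and 46.0 in old Cas9, and rose by 0.59 ± 0.15. The beta-PheRS gene stood at 35.0, 31.2 and 32.4 CPM against 33.1, 32.1 and 34.0. The subunit genes thus had different values in this comparison, and the difference between them was not tested.

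None of the 14 mitochondrial genes tested in old Opa1-mut was called by edgeR or by DESeq2. None had an unadjusted p under 0.05, against 1819 of all 7119 genes tested. Their log2 fold changes ran from -0.10 for IleRS-m to 0.47 for CysRS-m. The standard errors of the mitochondrial genes were 0.14 to 0.42, against 0.098 to 0.25 for the cytosolic ones. PheRS-m, for phenylalanine, stood at 74.0, 94.1 and 96.1 CPM in old Opa1-mut and at 104, 85.1 and 92.0 in old Cas9, and SerRS-m at 43.2, 36.6 and 47.0 against 33.9, 42.5 and 34.0. Both overlapped between the groups. AspRS-m stood at 74.0, 66.4 and 66.8 CPM against 63.8, 58.6 and 60.7 and was the mitochondrial gene without overlap, at a log2 fold change of 0.16 ± 0.14. The least abundant mitochondrial genes carried few counts, and changes of the size of the smaller cytosolic ones were not detectable for IleRS-m (standard error 0.42), ArgRS-m (0.40) and TyrRS-m (0.37) at this depth.

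For 12 amino acids the table holds a gene of each form. In old Opa1-mut against old Cas9 the cytosolic gene had the larger log2 fold change in 12 of 12, by a median of 0.75. The smallest gap was that of arginine, 0.015, where ArgRS-m was at 0.45 ± 0.40. The gap was 1.40 for tryptophan (TrpRS 1.51, TrpRS-m 0.10) and 1.35 for serine (SerRS 1.55, SerRS-m 0.19). In young Opa1-mut against young Cas9 the cytosolic gene had the larger value for 11 of 12 amino acids, by a median of 0.26. In old Marf-mut it had the larger value for 7 of 12 amino acids, with a median gap of 0.051, and in old Drp1-mut for 6 of 11, with a median gap of 0.014. The old mutants share the old Cas9 libraries, and the gap itself was not tested.

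**Figure D3:**
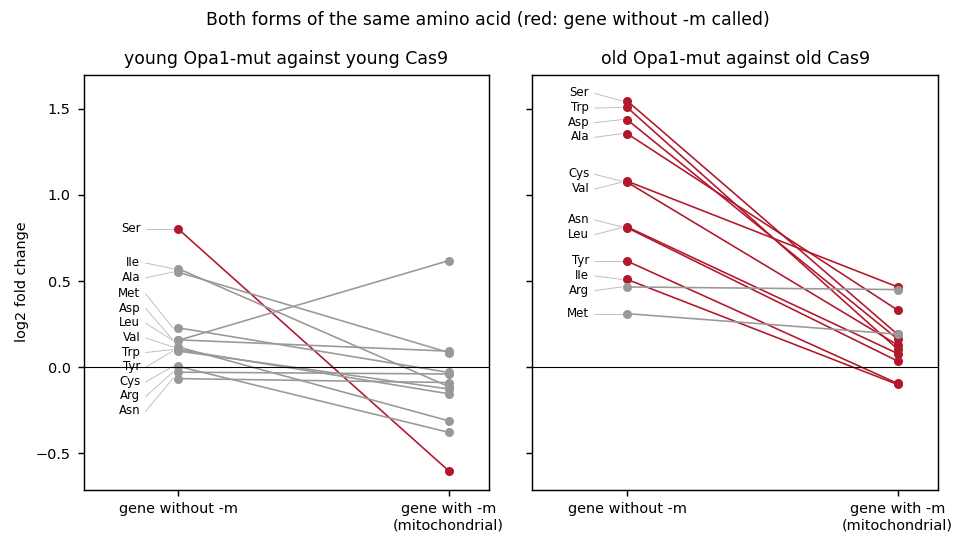
Log2 fold change of Opa1-mut against Cas9 for the cytosolic (left end) and mitochondrial (right end) gene of the same amino acid, in young (left panel) and old flies (right panel). Red lines mark amino acids whose cytosolic gene was called. The left end is higher in 11 of 12 lines in young flies and in 12 of 12 in old flies.

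In young Opa1-mut neurons 1 of the 35 genes was called. SerRS stood at 129, 105 and 107 CPM in young Opa1-mut and at 69.5, 66.5 and 64.4 in young Cas9. It rose by 0.80 ± 0.13 on the log2 scale (adjusted p = 0.00384, edgeR), while 2.27% of all genes tested were called higher. Of 7 clock neuron markers 1, vri, was called higher in young Opa1-mut than in young Cas9. Of 8 glial markers 2 were called lower, where 0.67% of all genes were called lower. The part of these markers was not tested. With log2 depth as a covariate none of the 35 was called. AlaRS stood at 68.9, 63.9 and 70.2 CPM against 56.1, 35.2 and 49.5, without overlap, at a log2 fold change of 0.55 ± 0.17 and an adjusted p of 0.0885 (edgeR). The median over the cytosolic genes was 0.098 and that over the mitochondrial genes was -0.089. In direct tests SerRS was also higher in young Opa1-mut than in young Marf-mut (72.6, 66.0 and 71.7 CPM), by 0.71 ± 0.13 (adjusted p = 0.0135, edgeR), where 0.867% of genes were called higher. That call was lost without young Opa1-mut replicate 1 or 3 and without young Marf-mut replicate 1 or 2. Against young Drp1-mut none of 34 genes was called by edgeR or DESeq2, and 0.224% of all genes were called. Of the 34, 4 had an unadjusted p under 0.05, as did 483 of all 7158 tested.

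The Opa1-mut effect was larger in old than in young flies for 6 cytosolic genes, by an edgeR interaction test over the 12 libraries of Opa1-mut and Cas9. These were TrpRS, AspRS, ValRS, HisRS, AsnRS and SerRS, and 2.36% of all genes tested were called in the same direction. For TrpRS the log2 fold change was 0.10 in young and 1.51 in old flies, and young Opa1-mut libraries stood at 55.9, 53.3 and 58.2 CPM beside 49.2, 58.0 and 52.7 in young Cas9. For AspRS it was 0.16 in young and 1.44 in old flies, and for ValRS 0.12 and 1.07. For TrpRS, ValRS, HisRS and AsnRS every old Cas9 library lay below every young Cas9 library. SerRS was called at both ages and differed between them as well. AlaRS was not called in the interaction. With log2 depth as a covariate none of these differences was called.

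Within Opa1-mut, 11 cytosolic genes and SerRS-m were higher in old than in young flies, where 7.62% of all genes were called higher. AspRS changed most, from 56.7, 56.6 and 64.5 CPM in young to 123, 135 and 148 in old Opa1-mut, a log2 fold change of 1.18 ± 0.12 (adjusted p = 6.01e-06, edgeR). The others were TrpRS (0.92 ± 0.12), CysRS (0.88 ± 0.21), SerRS (0.79 ± 0.11), ValRS (0.76 ± 0.14), LeuRS (0.72 ± 0.15), TyrRS (0.67 ± 0.14), AlaRS (0.59 ± 0.12), AsnRS (0.55 ± 0.12), GlnRS (0.45 ± 0.14) and ThrRS (0.39 ± 0.085). SerRS-m stood at 26.8, 32.6 and 19.6 CPM in young and at 43.2, 36.6 and 47.0 in old Opa1-mut (0.68 ± 0.21, adjusted p = 0.0394, edgeR). The SerRS-m call was kept in 6 of 15 alternative fits. It was lost with DESeq2, with a replicate block, with depth as a covariate and after thinning. It was also lost in every omission except that of young Opa1-mut replicate 2. The GlnRS call was kept in 2 of 15 and lost with DESeq2 and in every omission. CysRS was not called with depth as a covariate, with the 24 libraries in a single fit or without old Opa1-mut replicate 3, and ThrRS was not called with DESeq2. The young Opa1-mut levels of SerRS-m were low beside the 39.0, 46.3 and 37.8 CPM of young Cas9, a difference of -0.60 that was not called.

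Old Opa1-mut also differed from the other mutants when they were compared directly. Against old Marf-mut 14 of 35 genes were higher, all cytosolic, and 9.14% of all genes tested were called higher. These libraries overlapped in depth with old Marf-mut (1394517 to 1735212 UMIs). Old Marf-mut stood at 85.5, 76.6 and 96.1 CPM for SerRS, and old Opa1-mut was higher by 1.20 ± 0.10 (adjusted p = 1.18e-08, edgeR). For AspRS old Marf-mut stood at 60.5, 67.7 and 54.2 CPM, and the difference was 1.17 ± 0.13. The other genes were AlaRS (1.11), TrpRS (0.92), LeuRS (0.89), ValRS (0.88), CysRS (0.71), GlyRS (0.66), GlnRS (0.66), alpha-PheRS (0.54), IleRS (0.52), AsnRS (0.49), TyrRS (0.40) and ThrRS (0.31). Under each alternative and each omitted library 10 to 14 genes were called. Of the 14, 10 were called in every one of these fits, depth as a covariate included. Cell type markers differed here as well. Of 7 clock neuron markers 4 were called higher in old Opa1-mut than in old Marf-mut. Of 8 glial markers 3 were called lower, as were 2 of 2 tested photoreceptor markers, with 6.79% of all genes called lower. None of 6 markers of other neurons was called. The part of these markers was not tested.

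Against old Drp1-mut 14 of 34 genes were higher in old Opa1-mut, all cytosolic, where 5.63% of all genes were called higher. AspRS stood at 41.7, 51.1 and 29.8 CPM in old Drp1-mut and differed by 1.68 ± 0.18 (adjusted p = 1.04e-05, edgeR). SerRS stood at 86.1, 48.2 and 67.4 CPM and differed by 1.49 ± 0.17. The old Drp1-mut libraries were shallow (684175 to 1148217 UMIs). No gene was called with depth as a covariate, 9 were called after thinning, and 9 without old Opa1-mut replicate 2 or 3. Of 7 clock neuron markers 3 were called lower in old Opa1-mut than in old Drp1-mut. So was 1 of 6 tested glial markers, where 4.61% of all genes were called lower. The part of these markers was not tested.

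Drp1-mut and Marf-mut gave few or no calls against Cas9. In young Drp1-mut none of 35 genes was called by edgeR or DESeq2, where 0.0831% of all genes were called. None of the 35 had an unadjusted p under 0.05, against 357 of all 7220 genes tested. The smallest p was that of TrpRS-m, at 29.2, 34.8 and 47.1 CPM against 62.5, 35.2 and 59.9 in young Cas9, overlapping groups with a log2 fold change of -0.46 ± 0.22. In old Drp1-mut none of 33 genes was called by either tool, and 0.394% of all genes were called. Of the 33, 1 had an unadjusted p under 0.05, as did 515 of all 6847 genes tested. That gene was HisRS, at 62.6, 52.5 and 43.9 CPM against 38.6, 39.3 and 39.6 in old Cas9, without overlap. Its log2 fold change was 0.48 (adjusted p = 0.639, edgeR). GluRS-m and IleRS-m did not pass the filter there. In young Marf-mut none of 35 genes was called by either tool, and 0.346% of all genes were called. Of the 35, 3 had an unadjusted p under 0.05, as did 705 of all 7229 tested. LeuRS-m had the smallest p in young Marf-mut, at 24.4, 34.6 and 32.3 CPM against 17.1, 22.8 and 20.7 in young Cas9, without overlap (0.62 ± 0.23, adjusted p = 0.344, edgeR). Between young Marf-mut and young Drp1-mut none of the 35 was called by either tool, and 0.46% of all genes were called. None of the 35 had an unadjusted p under 0.05, against 632 of all 7178 tested.

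In old Marf-mut 1 of 35 genes was called, the histidine enzyme gene, where 1.68% of all genes were called higher. All 3 old Marf-mut libraries lay above all 3 old Cas9 libraries for 7 of 20 cytosolic and 4 of 15 mitochondrial genes. The same held for 12.1% of all genes tested. The median log2 fold change was 0.23 for the cytosolic genes, 16 of 20 of them positive, and 0.21 for the mitochondrial genes. Over all genes tested it was 0.012. HisRS stood at 57.0, 70.2 and 67.2 CPM in old Marf-mut and at 38.6, 39.3 and 39.6 in old Cas9, a log2 fold change of 0.71 ± 0.17 (adjusted p = 0.0141, edgeR). The call was lost with DESeq2, with depth as a covariate, and without old Marf-mut replicate 2 or 3 or old Cas9 replicate 1 or 2. TrpRS stood at 54.8, 46.6 and 67.2 CPM against 37.8, 32.9 and 40.5, without overlap, and was not called (0.59 ± 0.19, adjusted p = 0.0788, edgeR). Old Marf-mut and old Drp1-mut differed in ThrRS (0.50 ± 0.13) and TyrRS (0.54 ± 0.15), both higher in old Marf-mut, where 1.86% of all genes were called higher. DESeq2 and the thinned counts called neither of them, and omitting a library left 0 or 1.

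**Figure D4:**
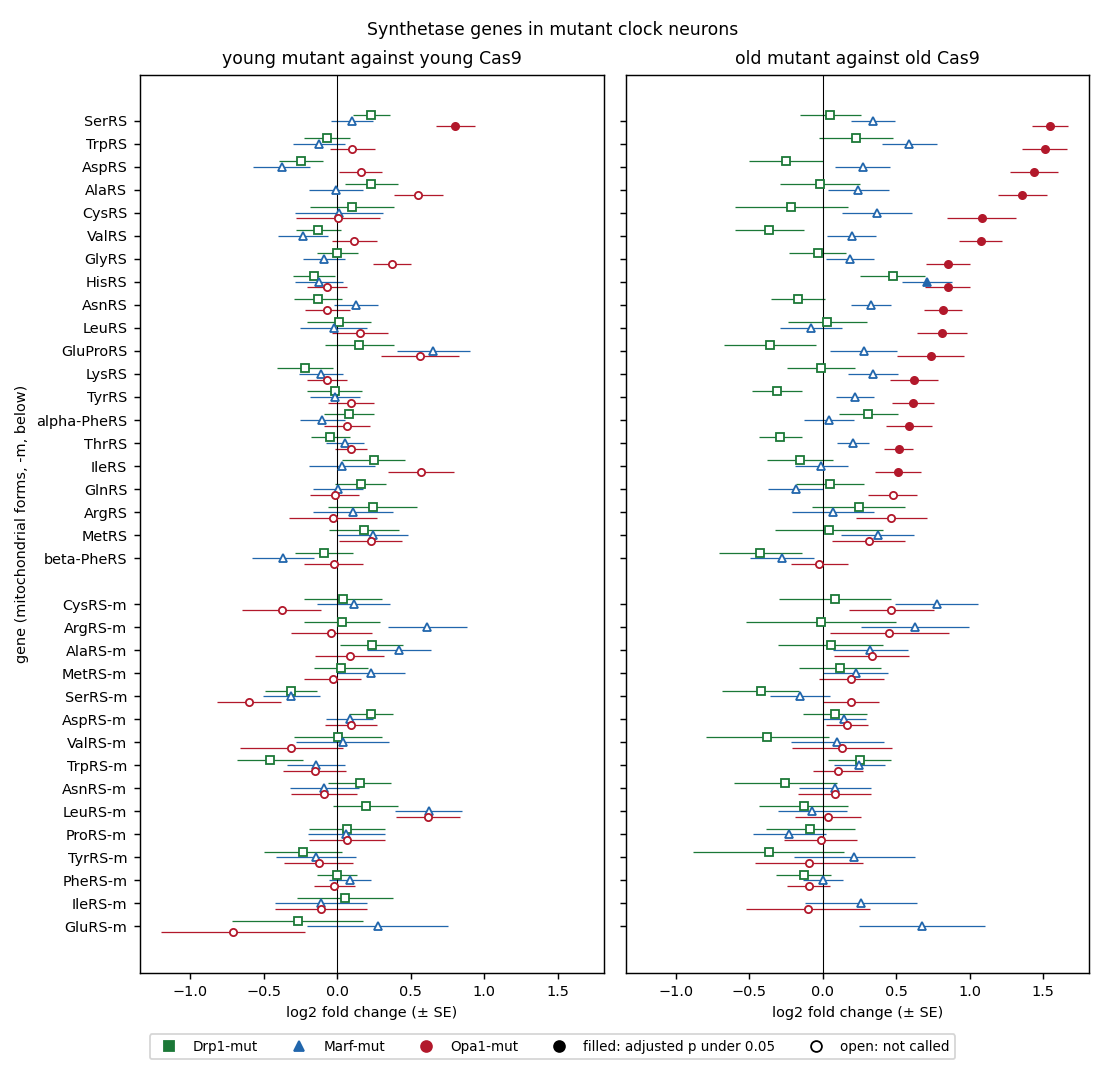
Log2 fold change with its standard error for the 35 genes in each mutant against Cas9 of the same age, cytosolic genes above and mitochondrial genes below. Filled symbols were called at an adjusted p under 0.05. In old flies the filled Opa1-mut symbols are 16 cytosolic genes, from 0.51 (IleRS) to 1.55 (SerRS).

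Age alone gave 1 call in the control. Of 34 genes tested between old and young Cas9, HisRS fell, where 0.324% of all genes were called lower. Every old Cas9 library lay below every young one for 5 of 20 cytosolic genes, and for 13.3% of all genes tested. These were HisRS, AsnRS, LysRS, TrpRS and ValRS, of which only HisRS was called. TrpRS stood at 49.2, 58.0 and 52.7 CPM in young and at 37.8, 32.9 and 40.5 in old Cas9. No cytosolic gene had every old library above every young one. HisRS stood at 61.5, 64.6 and 70.2 CPM in young and at 38.6, 39.3 and 39.6 in old Cas9, a log2 fold change of -0.69 ± 0.17 (adjusted p = 0.0341, edgeR). Old Cas9 libraries were the lowest of all libraries for HisRS, and the rises of HisRS in old Marf-mut and old Opa1-mut were measured against these same 3 libraries. The old Drp1-mut libraries also lay above them for HisRS, without a call. HisRS did not pass the test between old and young Opa1-mut (0.22 ± 0.13) or between old Opa1-mut and old Marf-mut (0.14 ± 0.13). The fall in Cas9 was not called with DESeq2, with depth as a covariate, after thinning, without any 1 of the old Cas9 libraries, or without young Cas9 replicate 3. In Drp1-mut no gene of 34 was called between ages by edgeR or DESeq2, and 0.705% of all genes were called. Of the 34, 2 had an unadjusted p under 0.05, as did 821 of all 6951 tested. In Marf-mut no gene of 35 was called by either tool, and 3.39% of all genes were called. Of the 35, 2 had an unadjusted p under 0.05, as did 1116 of all 7204 tested. Without young Marf-mut replicate 3, 2 genes were called in Marf-mut. The Drp1-mut effect was not called as different between ages for any gene of 35 by either tool. Of these 2 had an unadjusted p under 0.05, as did 260 of all 7256 tested, and 0% of all genes were called by edgeR. The Marf-mut effect did not either, with 0.284% of all genes called. Here 5 of the 35 had an unadjusted p under 0.05, as did 763 of all 7385 genes tested.

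Genes that act beside the synthetases were taken from lists that were chosen with earlier results known. In old Opa1-mut against old Cas9, 6 of 10 tested genes of the integrated stress response rose, with a median log2 fold change of 0.67, where 7.54% of all genes tested were called higher. These were crc, the ATF4 of the fly (0.29 ± 0.086), the eIF2alpha kinases Gcn2 (0.67 ± 0.21) and PEK (0.67 ± 0.17), the paired transcription factors Xrp1 (0.68 ± 0.088) and Irbp18 (1.06 ± 0.11), and Nmdmc, an enzyme of mitochondrial one-carbon metabolism (1.97 ± 0.30). The other 4 were not called. Thor, the fly 4E-BP that restrains translation, stood at 535, 314 and 349 CPM against 140, 107 and 46.0, without overlap (log2 fold change 2.001 ± 0.46, adjusted p = 0.0712, edgeR). The translation factor gene eIF2alpha was at 0.34 ± 0.12, PPP1R15, for a phosphatase subunit that acts on it, at 0.27 ± 0.12, and AsnS, asparagine synthetase, at -0.12 ± 0.15. Of 9 genes for synthetase partners and charging 2 rose, AIMP2, a scaffold of the mammalian complex (0.55 ± 0.13), and RtcB, the ligase that joins tRNA exons after intron removal (1.01 ± 0.14). AIMP1 (0.27 ± 0.18), AIMP3 (0.28 ± 0.11) and Slimp, a relative of mitochondrial seryl-tRNA synthetase (0.32 ± 0.31), were not called. Of 10 genes that deliver loaded tRNA to ribosomes 2 rose, the cytosolic elongation factor genes eEF1alpha1 (0.88 ± 0.091) and eEF1gamma (0.58 ± 0.087). The mitochondrial factors mEFTu1 (0.17 ± 0.11) and mEFTs (-0.37 ± 0.13) were not called. Of 9 tRNA maturation genes 1 rose, La, which binds the ends of new small RNAs (0.56 ± 0.10).

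In young Opa1-mut 1 of 10 tested stress response genes rose, Xrp1 (0.60 ± 0.099), where 2.27% of all genes tested were called higher. No gene of the other 3 lists was called. In old Marf-mut 1 of 9 partner genes rose, RtcB (0.86 ± 0.14), and 1 of 10 delivery genes, mEFTu1 (0.40 ± 0.11). There 1.68% of all genes tested were called higher and 2.91% lower. Of 10 stress response genes 1 fell, AsnS, with a log2 fold change of -1.23 ± 0.22, and none of 8 maturation genes was called. AsnS makes asparagine, and AsnRS, which loads it, was not called in old Marf-mut.

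When the libraries of each suspension were summed, so that each genotype had 2 suspensions and 3 residual degrees of freedom remained, edgeR called none of the 35 genes in any mutant. For Opa1-mut SerRS had a log2 fold change of 1.18 ± 0.20 (adjusted p = 0.0551), AlaRS of 0.95 ± 0.23, AspRS of 0.83 ± 0.32 and TrpRS of 0.81 ± 0.31. There 8 of the 35 genes, all cytosolic, had an unadjusted p under 0.05, as did 1041 of all 8707 genes tested. DESeq2 called 1 of the 35, and 0.609% of all genes were called by edgeR. Omitting a suspension left 0 to 8 called genes, the 8 without the young Opa1-mut suspension and 1 each without the young Drp1-mut, old Drp1-mut or old Opa1-mut suspension. For Marf-mut 2 genes had an unadjusted p under 0.05, as did 567 of all 8707 tested. DESeq2 called none of the 35, and 0.103% of all genes were called. For Drp1-mut none of the 35 had an unadjusted p under 0.05, against 411 of all 8707 tested. DESeq2 called none of the 35, and 0.138% of all genes were called.

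In the annotation of the BDGP6 assembly, which is dm6, 16 of the 35 genes share exon bases with another gene, 6 cytosolic and 10 mitochondrial. How reads over shared bases were counted, and whether by strand, is not given in the sources used here, so these values are less certain. SerRS (2L:3035493-3037403, minus strand) overlaps CG17260 on the other strand, AspRS (2R:12877004-12883168, plus strand) overlaps Nmda1 and asRNA:CR45141 on the other strand and asRNA:CR43468 on its own, and HisRS (X:18515428-18520445, plus strand) overlaps Bx on its own strand. In old Opa1-mut against old Cas9 none of the neighbours tested was called: CG17260 was at 0.74 (adjusted p = 0.0834), Nmda1 at 0.23 (adjusted p = 0.0854) and Bx at -0.43 (adjusted p = 0.0936, all by edgeR). The antisense RNA genes at AspRS did not pass the filter on low counts. TrpRS (3R:9265027-9266904, minus strand), AlaRS (2L:8378262-8381764, minus strand) and ValRS (2R:13198850-13202709, plus strand) share no bases with another gene. TyrRS (3L:16417349-16419302) and GluRS-m (3L:16415292-16417177) are neighbours on the minus strand.

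In the authors' deposited table for old Opa1-mut, 13 cytosolic genes were higher at an adjusted p under 0.05, all of the 16 called here except GluProRS, IleRS and LysRS. The authors' deposited tables list SerRS as higher in young Opa1-mut and HisRS as higher in old Marf-mut, and no synthetase gene in young Drp1-mut, young Marf-mut or old Drp1-mut.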

How the data were processed

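RNA of 24 libraries of sorted clock neurons was measured as 5′ UMI counts (Smart-seq3, about 750 pg of cDNA per library, per the labels). The deposited counts are raw exon UMI counts per gene. Per the submitters' processing notes, STAR and the genome build dm6 were used by the authors. For both the version, and for the counting the program and annotation, were not given in the sources used here. In the authors' 6 deposited DESeq2 tables the fold changes are log2 values and the p-value columns hold raw and adjusted p-values, per the file headers. Their mean count, standard error and test statistic columns are taken as a score, per the file headers, and were not used.

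Counts were tested in R 4.3.3 with edgeR 4.0.16 (TMM scaling, filterByExpr by group, robust quasi-likelihood F test, Benjamini-Hochberg adjustment over all genes tested) in 22 comparisons, on the libraries of the groups compared. Each standard error was taken as the log2 fold change over the square root of its F statistic. Levels are CPM with TMM factors over all libraries. Depth was 684175 to 2889269 UMIs per library, and precision covers counting error and the spread between pools only. Suspension tests used summed counts with age and genotype as terms. Some of the tests were also run on simulated counts. These were drawn independently for each library, without differences between suspensions, so they cannot show how the tests handle such differences.

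All genes of the rule are members, and library values are given for those called in any comparison or with the smallest p in a mutant comparison. Members and lists were chosen with earlier results of these data known, and the grouping by class and complex was added after the values were seen. Alternatives were DESeq2 1.42.0 as the test or for size factors, scaling by totals, keeping all low counts, mitochondrial transcripts and rRNA left out, a replicate block, log2 depth as a covariate, wider fits, omitted libraries or suspensions and, chosen after seeing the data, thinning to equal depth. Replicate numbers do not pair libraries: 18 correlations of same-numbered deviations were -0.222 to 0.0912. No 2 libraries held identical counts. Sequences of the genes and promoters were not analysed here.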

Additional observations from a re-analysis of the deposited data

Results flagged for a closer look

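For 6 cytosolic synthetase genes the Opa1-mut effect against Cas9 differed between old and young flies by edgeR's interaction test. The difference on the log2 scale, old minus young, was 1.41 ± 0.21 (SE) for TrpRS (adjusted p = 0.000981) and 1.28 ± 0.22 for AspRS (adjusted p = 0.00241). It was 0.96 ± 0.21 for ValRS (adjusted p = 0.0107), 0.92 ± 0.20 for HisRS (adjusted p = 0.0098), 0.88 ± 0.20 for AsnRS (adjusted p = 0.0114) and 0.74 ± 0.17 for SerRS (adjusted p = 0.0143). All 6 had 3 of 3 old Opa1-mut libraries above the old Cas9 libraries. For TrpRS, ValRS, HisRS and AsnRS the old Cas9 libraries also lay below all young Cas9 libraries. Old Opa1-mut libraries were deeper than old Cas9 libraries, and young ones shallower than young Cas9 libraries.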

How the results depend on the processing

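No called gene changed direction under any alternative or omission. In old Opa1-mut against old Cas9 the count of 16 became 6 with log2 depth as a covariate, 12 to 16 when a library was omitted, and 13 to 17 under the other alternatives. In young Opa1-mut against young Cas9 it went from 1 to 3 with no filter on low counts and to 0 with depth. In old Marf-mut it went from 1 to 2 with total count scaling, to 0 with DESeq2 or depth, and was 0 to 1 with omissions. In old against young Cas9 it was 0 with DESeq2, with depth and after thinning, and 0 to 1 with omissions. In old against young Marf-mut omissions gave 0 to 2, and in old against young Opa1-mut 9 to 11. The 6 differences between ages in Opa1-mut became 0 with depth and 6 to 8 with omissions. For young Opa1-mut against young Marf-mut total count scaling gave 0 and omissions 0 to 1. For old Opa1-mut against old Marf-mut omissions gave 11 to 13. For old Opa1-mut against old Drp1-mut depth gave 0, thinning 9 and omissions 9 to 11. For old Marf-mut against old Drp1-mut the count of 2 became 0 with DESeq2, depth or thinning, 1 with the 24 libraries in a single fit and 0 to 1 with omissions. For Opa1-mut over suspensions the count of 0 became 2 with no filter, 1 with DESeq2 and 0 to 8 with an omitted suspension. The cause of these changes was not tested. A group left with fewer libraries, or a genotype left with 1 suspension, was assumed to vary like the others.

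With the replicate number as a block 16 genes were called in old Opa1-mut against old Cas9. The block gave 1 in place of 2 for old Marf-mut against old Drp1-mut and changed no other count by over 1.5 times, and the numbers do not pair libraries. The low counts of GluRS-m kept it out of the test between old Opa1-mut and old Cas9.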
